A study of Mus musculus with 12 samples.

Results

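A set of 10 genes of antioxidant defence were followed in mouse testis: Hmox1, Nqo1, Gclc, Gclm, Txnrd1, Gpx1, Sod1, Sod2, Cat and Prdx4. They were taken by gene symbol, and 10 of the 20718 genes in the deposited table carried these symbols, each in 1 row. RNA was sequenced from testes of ICR mice (spelled IRC in the labels) whose testes had been injected with lentivirus, in 4 groups of 3 libraries, 12 libraries in all. In F0_5251KD the virus carried a mixture of 3 short hairpins (shRNAs) that target the long non-coding RNA lncRNA5251, in the LV3 backbone, and in F0_3NC it carried the negative control of LV3. In F0_5251OV the virus carried full-length lncRNA5251 in the LV5 backbone, and in F0_5NC it was the LV5 vector. All groups were injected at 4 weeks of age, raised for 5 weeks, mated for 4 days and kept for 4 days more. Every group had received virus, so none of them shows an uninjected testis. Whether each library of a group is from its own animal is not stated in the labels, so the p-values reflect the spread among libraries alone, which may be technical.

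Nrf2 (gene Nfe2l2) is a transcription factor that the adaptor Keap1 and the ubiquitin ligase scaffold Cul3 hold at a low level. Oxidants and electrophiles modify Keap1, and Nrf2 then enters the nucleus, pairs with a small Maf protein (Maff, Mafg or Mafk) and binds the antioxidant response element of its targets, while Bach1 with a small Maf represses part of the same genes, Hmox1 above all, until haem releases it. In the testis, developing germ cells make reactive oxygen species in their mitochondria, and sperm membranes are rich in lipids that oxidise easily.

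The shRNAs that defined the knockdown group are shown because the treatment rests on them, each as its sense sequence from 5′ to 3′ as the study listed it, with the control hairpin of LV3 first.
Sh3NC: ttctccgaacgtgtcacgt
shlncRNA5251 KD #1: gctgggacttaatgtccttct
shlncRNA5251 KD #2: gcatgggcaattcaaacaaat
shlncRNA5251 KD #3: gcttattatgcatcgtaaacc
The table has no row under the name lncRNA5251, so the level of the targeted RNA was not checked here.

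The letters TGACNNNGC, the core of the antioxidant response element, were searched on both strands of RefSeq promoters (GRCm38.p6, the patched form of mm10), each running from 250 bases before to 50 bases after a start site. Of 32851 promoters in the table, 12.4% held the letters. Of the members, 8 had a promoter in the table, 10 promoters in all. Of these promoters 3 held a match, 1 each of Gclm, Txnrd1 and Sod1. For Hmox1 and Gclc no promoter is printed. The windows below carry the match in capitals with 10 bases on each side, and they are shown because their letters fit the core of the element through which Nrf2 and Bach1 are known to act. Of the 4 genes outside the members that differed between the control groups (below), Maff and Ugdh held a match and are printed, while Bach1 and Txnip, with 1 promoter each, held none.
Gclm: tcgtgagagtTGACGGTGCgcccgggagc
Txnrd1: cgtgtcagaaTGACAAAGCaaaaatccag
Sod1: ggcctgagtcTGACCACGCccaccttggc
Maff: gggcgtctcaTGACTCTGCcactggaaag
Ugdh, first match: gcggagcccgTGACTTAGCtggagctgat
Ugdh, second match: ccgaactgtaTGACCACGCcccttgagga
The Gclm window is chr3:122245413-122245441 on the minus strand, with its centre 130 bases upstream of the start site. The Txnrd1 window is chr10:82859104-82859132 on the minus strand, 88 bases upstream in 1 of its 3 promoters. The Sod1 window is chr16:90220696-90220724 on the minus strand, 52 bases upstream. The Maff window is chr15:79346499-79346527 on the plus strand, 108 bases upstream in 1 of its 3 promoters, and the Ugdh windows are chr5:65435956-65435984 on the minus strand and chr5:65435918-65435946 on the plus strand, 128 and 90 bases upstream. A match describes the letters in the window and does not show that a factor binds there. A gene without a match, such as Nqo1, may hold the letters outside the bases searched.

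Library totals were between 15431383 and 16355720 estimated counts, a ratio of 1.06, and 16296 genes, all 10 members among them, passed the filter on low counts. Libraries of the same group differed by a chi-square per gene of 3.86 to 21.3, highest for the pairs with F0_3NC replicate 2. No library was thus a copy of another of its own group. Libraries of different groups were not compared in this way. The first principal component held 17.2% of the variance. On it the F0_3NC and F0_5251KD libraries scored -28.8 to -11.6, and the F0_5NC and F0_5251OV libraries 2.35 to 26.4. The backbone, the hairpins of the LV3 viruses and any batch that followed them cannot be told apart. Testis identity was clear from the summed elongated spermatid markers, at 15500 to 21000 CPM (estimated counts scaled to library total with TMM factors) in all libraries. Summed epididymis markers, from a neighbouring organ, were at 2.29 to 11.9 CPM in the F0_3NC and F0_5251KD libraries and at 5.43 to 124 CPM in the others. In bulk testis, fewer cells of a type and less RNA per cell cannot be told apart.

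The members covered a 163-fold range of level per transcript length, from Sod1 to Nqo1, in RPKM (reads scaled by transcript length and library total). Sod1, the copper-zinc superoxide dismutase of the cytosol, had a mean of 335 RPKM (SD 22.8, n = 12 libraries) and lay at the 98.8th percentile of all genes. Prdx4, a peroxiredoxin of the endoplasmic reticulum that is known for its part in protecting germ cells, followed with 143 RPKM (SD 8.88, n = 12). Every library held more Sod1 than Prdx4 and more Prdx4 than any member below it.

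Sod2, the manganese superoxide dismutase of mitochondria, had 31.2 RPKM (SD 1.21, n = 12), and Gpx1, the selenium-dependent glutathione peroxidase of the cytosol, 29.1 RPKM (SD 4.5, n = 12). These neighbours overlapped, with Sod2 the higher in 8 of 12 libraries. Gclm, the modifier subunit of glutamate-cysteine ligase, which makes the first step of glutathione synthesis, had 19.2 RPKM (SD 1.86, n = 12). Its catalytic partner Gclc had 9.55 RPKM (SD 1.18, n = 12), so that the modifier exceeded the catalytic subunit 2.01-fold in mean RPKM. Hmox1, the inducible haem oxygenase, had 9.94 RPKM (SD 3.5, n = 12), and Txnrd1, the cytosolic thioredoxin reductase, 9.1 RPKM (SD 0.875, n = 12). Hmox1, Gclc and Txnrd1 were not ordered beyond their spread, as Hmox1 was above Gclc in 6 and Gclc above Txnrd1 in 8 of 12 libraries.

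The lowest levels were those of Cat, the peroxisomal catalase, with 4.51 RPKM (SD 0.873, n = 12), and Nqo1, a quinone reductase and a common readout of Nrf2, with 2.05 RPKM (SD 0.624, n = 12). Nqo1 rested on 28 to 81 estimated counts per library, the fewest of the members. For the peroxidases and thioredoxin reductases, the testis held far more of a relative than of the member, and for the other families given the member was the higher. Gpx4, the peroxidase of lipid peroxides that also builds the sperm midpiece, had 1200 RPKM, which was 41.4 times the mean RPKM of Gpx1. Txnrd3, the thioredoxin-glutathione reductase of testis, had 209 RPKM, 23 times that of Txnrd1. Sod2 exceeded Sod3, the extracellular superoxide dismutase, 1.93-fold, and Prdx4 exceeded Prdx6 2.78-fold in mean RPKM.

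**Figure D1:**
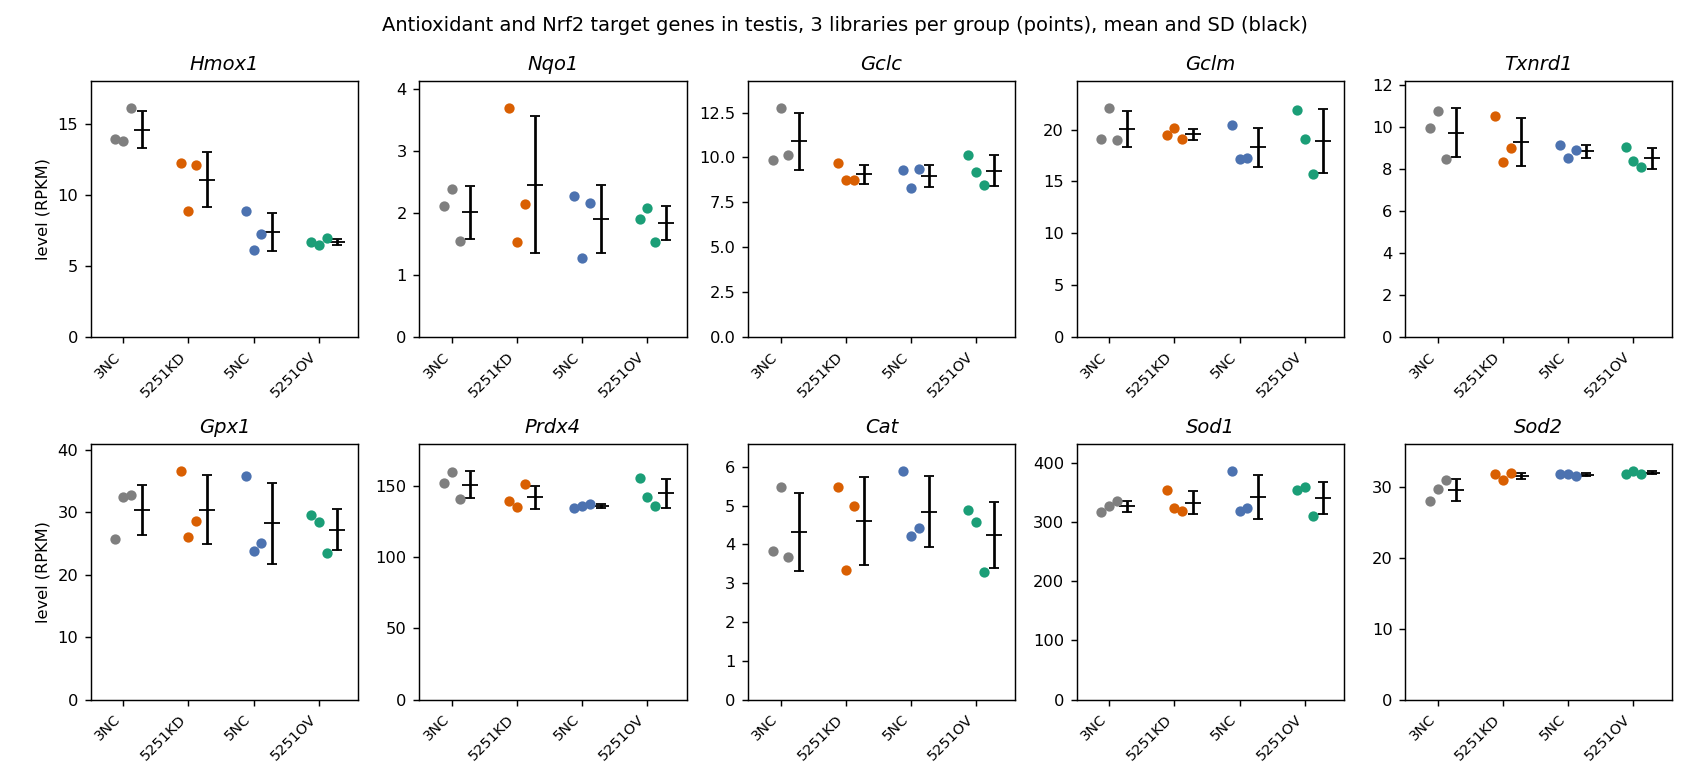
Level in RPKM (vertical axis, from 0) of the 10 genes in each library, by group (horizontal axis, with the prefix F0_ left off), with 3 points per group for the libraries and the mean and SD in black. Hmox1 falls from 13.8 to 16.1 RPKM in 3NC to 6.11 to 8.83 RPKM in 5NC, while the groups of Sod2, Gclm and Txnrd1 lie close together.

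The members also differed in how much they varied. The ratio of the highest to the lowest library in RPKM was 2.91 for Nqo1, 2.63 for Hmox1 and 1.8 for Cat, and 1.15 for Sod2 and 1.19 for Prdx4. Within groups, the SD of log2 CPM was 0.404 for Nqo1, of which counting alone gives 0.213, and 0.29 for Cat (counting 0.11). It was 0.0553 for Sod2, 0.0744 for Sod1 and 0.0761 for Prdx4, against a median of 0.182 over all genes tested. Hmox1, with 0.178 within groups, was near that median, below Nqo1 and Cat.

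F0_5251KD replicate 1 held the most Nqo1 (5.15 CPM) and the most Gpx1 (32.9 CPM) of the 12 libraries, and F0_5NC replicate 1 the most Cat (13.2 CPM). The same libraries had the highest sums of the 8 Leydig cell markers, the steroid-making cells between the tubules, at 3100 and 3090 CPM, against 1490 to 2350 CPM in the other 10. They were also the highest pair for the sums of Sertoli cell (1120 and 1550 CPM), endothelium (47.4 and 46.7 CPM) and spermatogonium (127 and 130 CPM) markers, F0_5251KD replicate 1 was the highest for red blood cell and adipocyte markers, and F0_5NC replicate 1 for macrophage markers. Other lists went the other way. F0_5NC replicate 1 was the lowest of the 12 for peritubular smooth muscle (305 CPM), adipocyte (13.1 CPM) and round spermatid (1120 CPM) markers. F0_5251KD replicate 1 was the lowest for spermatocyte (967 CPM) and epididymis (2.29 CPM) markers. The part of any of these cells in the 3 genes was not tested.

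Whether knockdown of lncRNA5251 altered the antioxidant genes was asked of F0_5251KD vs F0_3NC. No member passed the test, and the 10 log2 fold changes lay between -0.41 and 0.27 with a median of -0.026 (all genes tested, -0.004). The largest differences were lower values of Hmox1 and Gclc, and both missed the threshold by far. By edgeR with Benjamini-Hochberg adjustment, 0 of 10 members had an adjusted p under 0.05, beside 0.0245% of all genes tested. An unadjusted p under 0.05 was found for 2 of 10, where 4.74% of all genes had one. DESeq2 called none of the 10 either.

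Hmox1, which splits haem into biliverdin, iron and carbon monoxide, was at 20.3, 19.6 and 23.6 CPM in the F0_3NC libraries and at 17.3, 12.9 and 17.6 CPM in the F0_5251KD libraries. All knockdown libraries were below all control libraries, and replicate 2 of the knockdown was the lowest of the 6. The log2 fold change was -0.41 (SE 0.137, 95% interval -0.71 to -0.11), with an adjusted p of 0.897 by edgeR.

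Gclc was at 30.9, 39 and 32.8 CPM in F0_3NC and at 30.3, 27.5 and 28 CPM in F0_5251KD. The groups did not overlap, but the highest knockdown library and the lowest control library were nearly equal, and F0_3NC replicate 2 stood above the other 5. Its log2 fold change was -0.26 (SE 0.104, 95% interval -0.49 to -0.04; adjusted p = 0.897 by edgeR), and without F0_3NC replicate 2 it was -0.16. Groups without overlap were thus found for 2 of 10 members, both lower in the knockdown, where 11.8% of all genes did not overlap, 6.28% as lower and 5.52% as higher in the knockdown.

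The other glutathione and thioredoxin members differed little. Gclm had a log2 fold change of -0.05 (95% interval -0.27 to 0.18) and Txnrd1 of -0.08 (-0.31 to 0.14). RefSeq places other genes over parts of both loci, and the libraries are not stated to carry strand information, so the counts of Gclm and Txnrd1 may include reads of these neighbours. Gpx1 had a log2 fold change of 0 (-0.33 to 0.32), Cat of 0.08 (-0.36 to 0.52) and Nqo1 of 0.27 (-0.37 to 0.91). The direction of Nqo1 and Cat rested on F0_5251KD replicate 1, without which they had -0.13 and -0.06. The upper bounds in fold were 1.88 for Nqo1 and 1.43 for Cat, so differences below these sizes may have been missed with 3 libraries per group.

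The intervals were narrowest for the superoxide dismutases and Prdx4. Sod1 had a log2 fold change of 0.03 (-0.13 to 0.19), Sod2 of 0.08 (-0.06 to 0.22) and Prdx4 of -0.10 (-0.25 to 0.06). For Sod2 the interval in fold runs from 0.958 to 1.17.

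Whether overexpression of lncRNA5251 altered them was asked of F0_5251OV vs F0_5NC. No member passed the test here either, and the log2 fold changes lay between -0.14 (Cat) and 0.13 (Prdx4), with a median of 0.016 (all genes tested, -0.002). By edgeR 0 of 10 members had an adjusted p under 0.05, as did 0% of all genes, and 0 of 10 had an unadjusted p under 0.05, where 8.77% of all genes had one. DESeq2 called none of the 10.

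Hmox1 was at 11.9, 9.05 and 10.4 CPM in F0_5NC and at 9.53, 9.53 and 10.4 CPM in F0_5251OV. The overexpression libraries lay inside the range of the control libraries. The log2 fold change was -0.09 (SE 0.145, 95% interval -0.40 to 0.22; adjusted p = 0.864 by edgeR).

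Prdx4 was at 116, 130 and 128 CPM in F0_5NC and at 143, 134 and 132 CPM in F0_5251OV. The groups were apart in CPM by a small margin, and in RPKM they overlapped. The log2 fold change was 0.13 (SE 0.0737, 95% interval -0.03 to 0.29; adjusted p = 0.61 by edgeR). It was the 1 member of 10 whose groups did not overlap in CPM, and it was higher in F0_5251OV. Among all genes 13.9% did not overlap, 7.33% as higher and 6.57% as lower.

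Among the rest, Gclc had a log2 fold change of 0.10 (-0.12 to 0.33), Gclm of 0.09 (-0.13 to 0.32), Txnrd1 of -0.01 (-0.24 to 0.21) and Gpx1 of -0.01 (-0.33 to 0.32). The superoxide dismutases had 0.03 (Sod1, -0.13 to 0.18) and 0.06 (Sod2, -0.09 to 0.20). The intervals of Nqo1 (-0.66 to 0.67) and Cat (-0.58 to 0.30) were again the widest.

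**Figure D2:**
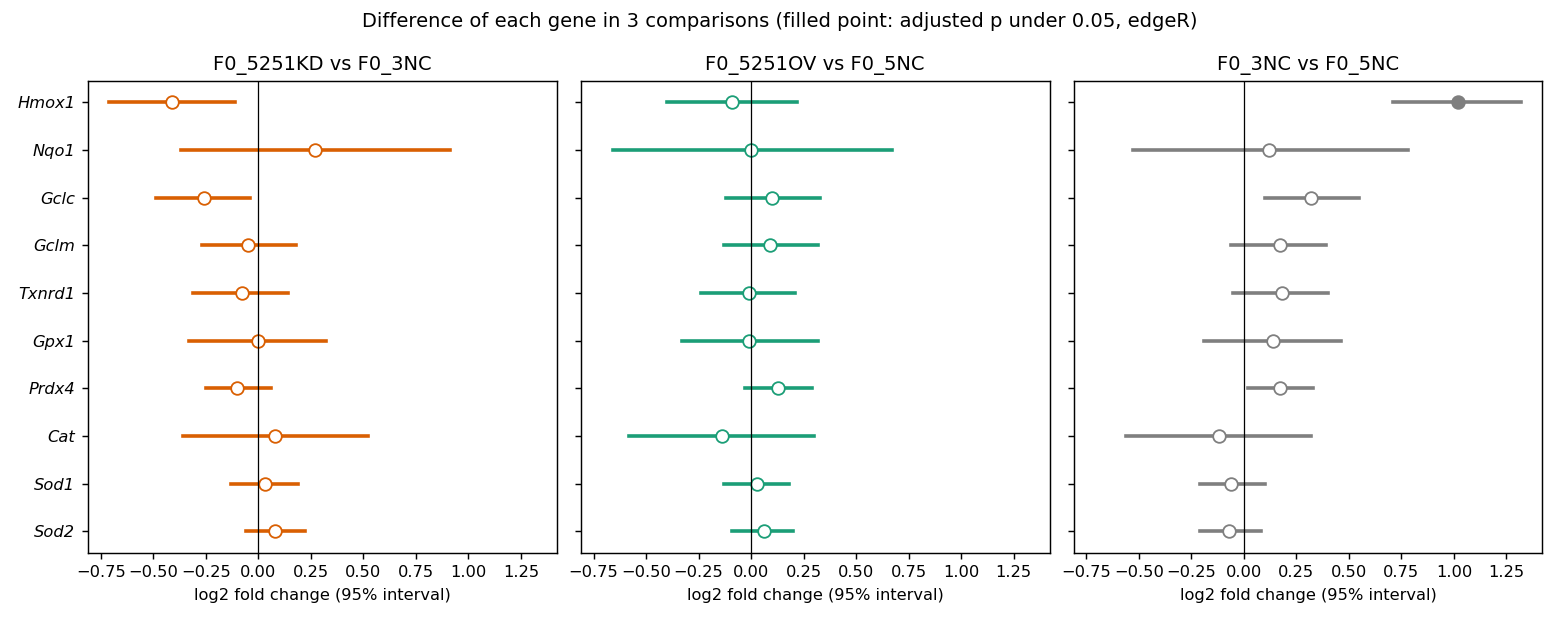
Log2 fold change (horizontal axis) of each gene with its 95% interval from edgeR in 3 comparisons, with filled points for an adjusted p under 0.05. The only filled point is Hmox1 in F0_3NC vs F0_5NC, at 1.02; the intervals of Hmox1 and Gclc in F0_5251KD vs F0_3NC exclude 0 without adjustment.

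The control groups share the absence of lncRNA5251 constructs. They differ in backbone and in the control hairpin, which F0_5NC, the LV5 vector, is not stated to carry. They gave the only member past the threshold. Hmox1 was 2.03-fold higher in F0_3NC than in F0_5NC (95% interval 1.64 to 2.5), with means of 21.2 ± 2.15 and 10.4 ± 1.41 CPM (SD, n = 3 libraries each). The lowest F0_3NC library, at 19.6 CPM, was above the highest F0_5NC library, at 11.9 CPM. The log2 fold change was 1.02 (SE 0.141) with an adjusted p of 0.00422 by edgeR with Benjamini-Hochberg adjustment, and the adjusted p was between 4.82e-07 and 0.0374 over all alternatives. This was 1 of 10 members, higher in F0_3NC, beside 0.331% of all genes called, 0.276% as higher and 0.0552% as lower.

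Hmox1 separated the libraries of the LV3 viruses, which carried hairpins, from those of the LV5 viruses. Backbone, hairpin and any batch that followed them cannot be told apart. All 6 libraries with the LV3 backbone, at 12.9 to 23.6 CPM, were above all 6 with the LV5 backbone, at 9.05 to 11.9 CPM. The share of all genes that part the libraries in this way was not counted. On the first principal component the same libraries also lay apart. The knockdown group lay between its own control and the LV5 groups.

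Summed macrophage markers, cells rich in haem oxygenase, were at 96.6 to 134 CPM in F0_3NC and 114 to 164 CPM in F0_5NC, and 8 of the 10 markers had a lower value in F0_3NC. Summed red blood cell markers were at 53.9 to 62.5 CPM in F0_3NC and 45 to 66.1 CPM in F0_5NC. The 16 immediate early genes, which are transcribed within minutes of a stimulus, summed to 316 to 358 CPM in F0_3NC, 510 to 580 in F0_5251KD, 209 to 221 in F0_5NC and 175 to 238 in F0_5251OV. No marker of these lists was at 0 in every library of a group. The immediate early sum was thus higher in F0_3NC than in F0_5NC as Hmox1 was, but highest in F0_5251KD, where Hmox1 was below F0_3NC. Taken singly, 15 of the 16 immediate early genes were higher and 1 lower in F0_5251KD than in F0_3NC. The part of these genes in the Hmox1 difference was not tested.

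Of the other members, Gclc was at 26.7, 26.6 and 29 CPM in F0_5NC, below all F0_3NC libraries, at 0.32 on the log2 fold scale (SE 0.104) with an edgeR adjusted p of 0.305. Prdx4 had 0.17 (SE 0.0737, 95% interval 0.02 to 0.33; adjusted p = 0.395) and Gclm 0.17 (95% interval -0.06 to 0.39; adjusted p = 0.523). With Hmox1 these were the 4 of 10 members without overlap in CPM, all higher in F0_3NC. Among all genes 17% did not overlap, 9.59% as higher and 7.41% as lower. For Gclm the margin was small, with a lowest F0_3NC library at 37.5 CPM and a highest F0_5NC library at 36.9 CPM. In RPKM the groups of Gclm overlapped. Txnrd1 (0.18, -0.05 to 0.40), Gpx1 (0.14, -0.19 to 0.46) and Nqo1 (0.12, -0.53 to 0.78) had intervals that included 0, as did Sod1 (-0.06, -0.21 to 0.10), Sod2 (-0.07, -0.21 to 0.08) and Cat (-0.12, -0.56 to 0.32). The median of the 10 was 0.151 (all genes tested, 0).

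The difference of effects was tested as an interaction, the log2 fold change of knockdown minus that of overexpression, each against its own control. By edgeR, 0 of 10 members and 0% of all genes passed. An unadjusted p under 0.05 was found for 2 of 10, where 11.3% of all genes had one. These were Gclc, with -0.36 (SE 0.148; adjusted p = 0.42 by edgeR), and Prdx4, with -0.23 (SE 0.104; adjusted p = 0.441 by edgeR). Hmox1 had -0.32 (SE 0.2, 95% interval -0.75 to 0.11; adjusted p = 0.523 by edgeR). The comparisons share their control libraries, so a high or low control value moves more than 1 of them. F0_3NC replicate 2 held the highest Gclc of all 12 libraries (39 CPM). It was also the highest for Prdx4 (146 CPM), close to F0_3NC replicate 1 and F0_5251OV replicate 1 (143 CPM each). F0_5NC replicate 1 held the lowest Prdx4, at 116 CPM. F0_3NC replicate 2 had the highest summed spermatocyte markers (1220 CPM) and the lowest elongated spermatid (15500 CPM) and Sertoli cell markers (797 CPM). The part of these cells was not tested.

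The genes whose log2 CPM followed a member most closely over the 12 libraries were named for the members without overlap in a treatment comparison. For Hmox1 they were Myc (Pearson r = 0.936), C5ar1 (0.935) and Sema4b (0.928). Myc is also a gene of the immediate early list. For Gclc they were Cct6a (0.926), Oip5 (0.92) and Ipo8 (0.92), and for Prdx4 Tcp11x2 (0.958), Atxn3 (0.946) and Hps5 (0.942). These r values are the highest of 16296 genes tested and describe the 12 libraries, which share their groups. Among the members, r of Hmox1 and Gclc was 0.57 over the libraries and -0.06 once group means were removed. Gclc with Gclm had 0.66 and 0.61, and Nqo1 with Txnrd1 0.69 and 0.77.

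A further 118 genes of the pathway, in 9 lists, were in the table, and 108 of them were tested. In F0_5251KD vs F0_3NC, 66 were higher and 42 lower with a median log2 fold change of 0.042, and edgeR called 0, with 9 of 108 at an unadjusted p under 0.05, where 4.74% of all genes had one. In F0_5251OV vs F0_5NC, 45 were higher and 63 lower (median -0.083), with 0 called and 10 of 108 at an unadjusted p under 0.05 (8.77% of all genes). In F0_3NC vs F0_5NC, 45 were higher and 63 lower (median -0.053), and edgeR called 3 higher and 1 lower, beside 0.331% of all genes, with 16 of 108 at an unadjusted p under 0.05 (11.9% of all genes). For the difference of effects 0 were called, with 19 of 108 at an unadjusted p under 0.05 (11.3% of all genes).

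The regulators of Nrf2 activity held 2 of the 4 called genes. Nfe2l2, at 10.2 RPKM, and Keap1, at 20.3 RPKM, did not pass in any comparison. Nfe2l2 had log2 fold changes of 0.10 (knockdown), -0.18 (overexpression) and 0.08 (F0_3NC vs F0_5NC), and Keap1 of 0.19, 0.06 and -0.07. Among the 13 regulators, Maff and Bach1 were called in F0_3NC vs F0_5NC, both higher.

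Maff was at 4.9, 5.23 and 4.62 CPM in F0_3NC and at 6.42, 4.86 and 4.98 CPM in F0_5251KD, but at 1.38, 1.59 and 1.28 CPM in F0_5NC and 0.627, 1.11 and 1.55 CPM in F0_5251OV. The libraries of LV3 and of LV5 were far apart. Between the controls the log2 fold change was 1.79 (SE 0.249; adjusted p = 0.00422 by edgeR).

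Bach1 was at 8.57, 9.91 and 7.73 CPM in F0_3NC and at 5.03, 3.77 and 4.48 CPM in F0_5NC, and the log2 fold change between the controls was 0.98 (SE 0.171), with an edgeR adjusted p of 0.0247. The call was lost, with adjusted p from 0.085 to 0.126, without F0_3NC replicate 1 or 2 or F0_5NC replicate 2 or 3. In F0_5251KD it was at 6.29, 4.73 and 5.05 CPM, below all F0_3NC libraries, at -0.71 on the log2 fold scale (SE 0.169) with an edgeR adjusted p of 0.64, which was the smallest unadjusted p among lower pathway genes there (0.00102). Hmox1 and Bach1, target and repressor, both had their highest group mean in F0_3NC and their lowest in F0_5251OV, where neither differed from F0_5NC beyond the spread.

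Ugdh, which makes UDP-glucuronic acid for conjugation, was the third called gene, at 11, 16.8 and 11.6 CPM in F0_3NC and 4.97, 4.36 and 4.09 CPM in F0_5NC (log2 fold change 1.55, SE 0.242; adjusted p = 0.0114 by edgeR). Its call was lost without F0_5NC replicate 2 (adjusted p = 0.0586) or replicate 3 (0.0793). Its F0_5251KD libraries, at 10.5, 6.09 and 7.09 CPM, lay below those of F0_3NC and above all LV5 libraries. Both margins were small, with the highest LV5 library, F0_5251OV replicate 1, at 5.83 CPM. Ugdh was not called in F0_5251KD vs F0_3NC, where 11.8% of all genes did not overlap.

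Txnip, an inhibitor of thioredoxin, was the gene called lower. It was at 45, 58.4 and 52.5 CPM in F0_3NC and at 134, 86.1 and 98.1 CPM in F0_5NC, with F0_5NC replicate 1 above all others (log2 fold change -1.03, SE 0.156; adjusted p = 0.00864 by edgeR). Without F0_3NC replicate 1 the adjusted p was 0.0636. Overexpression libraries, at 78.3, 75.6 and 74.6 CPM, were below their control (-0.48, SE 0.154; adjusted p = 0.536).

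**Figure D3:**
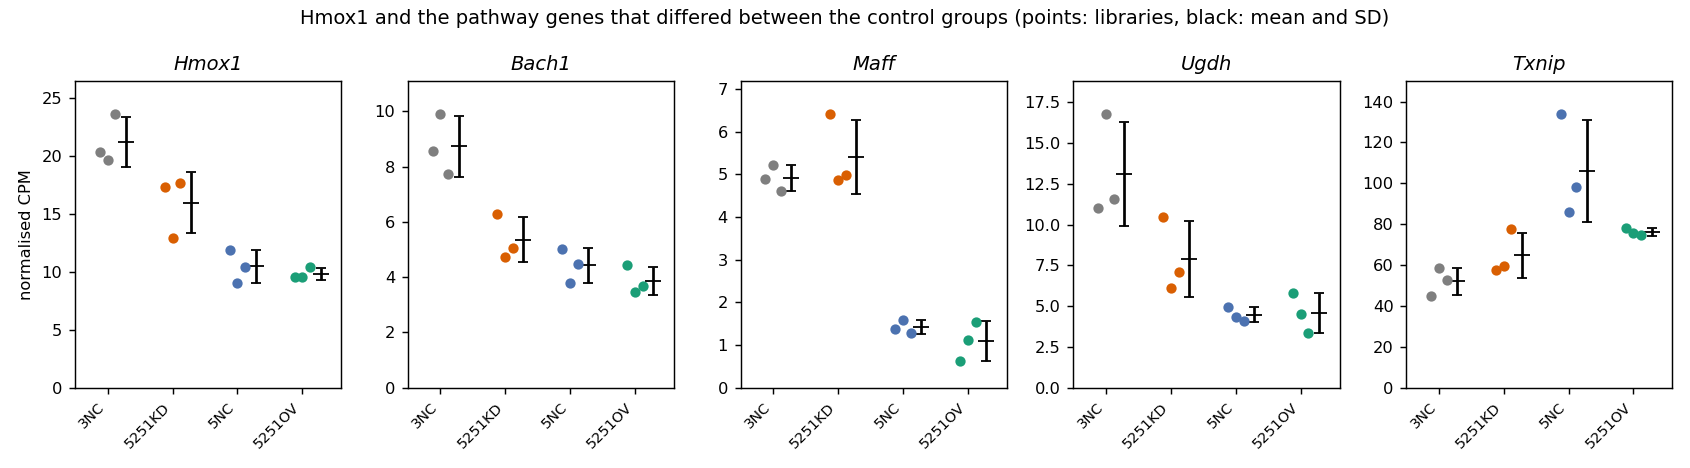
Normalised CPM (vertical axis, from 0) per library of Hmox1 and of the 4 other genes past the threshold in 3NC vs 5NC, by group, with the prefix F0_ left off and the mean and SD in black. Hmox1, Maff and Ugdh are higher in all 6 libraries of F0_3NC and F0_5251KD than in the 6 of F0_5NC and F0_5251OV. The share of all genes with such a split was not counted. Bach1 overlaps between F0_5251KD and F0_5NC, and Txnip is highest in F0_5NC.

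Mafg, another small Maf, was not called in any comparison. It was at 16.7, 13.4 and 14.8 CPM in F0_3NC, 19.5, 17.5 and 19.5 CPM in F0_5251KD, 19.3, 14.5 and 17.7 CPM in F0_5NC and 12.2, 14 and 10.9 CPM in F0_5251OV. The log2 fold change was 0.33 (SE 0.133; adjusted p = 0.897) in the knockdown and -0.48 (SE 0.135; adjusted p = 0.511) in the overexpression. Their difference of 0.81 (SE 0.189) had the smallest unadjusted p of the higher pathway genes, 0.000851, and an adjusted p of 0.33 by edgeR. Cul3 had the smallest among the lower ones, with -0.45 (SE 0.179; adjusted p = 0.42 by edgeR). It was at 856 CPM in F0_3NC replicate 2 and 855 CPM in F0_5251OV replicate 1, against 552 to 664 CPM in the other libraries.

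Of the 17 genes of the peroxiredoxin and thioredoxin list, Txnip was the 1 called gene in F0_3NC vs F0_5NC, and 0 were called in either treatment comparison. Srxn1, which restores overoxidised peroxiredoxins and is a known Nrf2 target, was at 48.6 to 54.8 CPM in F0_3NC and 34.9 to 45.3 CPM in F0_5NC (log2 fold change 0.41, SE 0.109; adjusted p = 0.206 by edgeR). Nme8, a thioredoxin-domain protein of sperm, had the smallest p among the genes higher in F0_5251OV (0.24, SE 0.101; adjusted p = 0.552 by edgeR). Its F0_5251OV libraries were at 270, 224 and 228 CPM, with replicate 1 well above the others, and those of F0_5NC at 178, 213 and 219 CPM. Txnrd3 had log2 fold changes of -0.05 in the knockdown, 0.10 in the overexpression and 0.11 between the controls, and Prdx6 of -0.02, 0.02 and -0.07.

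None of the 17 genes of glutathione synthesis and recycling, 5 tested peroxidases and 21 tested S-transferases passed in any comparison. Gsr, which reduces oxidised glutathione, had log2 fold changes of 0.10, 0.05 and 0.15 in the knockdown, the overexpression and between the controls. Gss, the second enzyme of glutathione synthesis, had -0.29 (0.01 without F0_5251KD replicate 3), -0.24 and -0.22, and Slc7a11, the cystine importer, 0.29, -0.30 and -0.07. Gpx4 had 0.12, 0.01 and -0.13.

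The smallest p among genes higher in F0_5251KD belonged to Ggt5, a gamma-glutamyl transferase family member at 0.955 CPM in the control and 1.79 CPM in the knockdown (log2 fold change 0.90, SE 0.269; adjusted p = 0.897 by edgeR). The smallest among genes lower in F0_5251OV was that of Gstm7, a glutathione S-transferase, at 65.6, 53.9 and 57.5 CPM in F0_5NC and 44.3, 49.1 and 44.5 CPM in F0_5251OV (-0.36, SE 0.0977; adjusted p = 0.511). Both had groups without overlap.

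The remaining lists gave 0 calls in the treatment comparisons. Haem and iron handling had 8 of 9 genes higher in F0_5251KD (median 0.1), where 49.1% of all genes were higher, 5 of 9 higher in F0_5251OV (median 0.03; 49.5% of all genes) and 4 of 9 higher in F0_3NC than in F0_5NC (median -0.05; 50.1% of all genes). The other Nrf2 targets had 9 of 18 higher in the knockdown and 7 of 18 in the overexpression, and the NADPH oxidases, which make superoxide, 2 of 6 and 1 of 6. Sod3 had log2 fold changes of -0.01, -0.23 and -0.15 in the knockdown, the overexpression and between the controls.

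**Figure D4:**
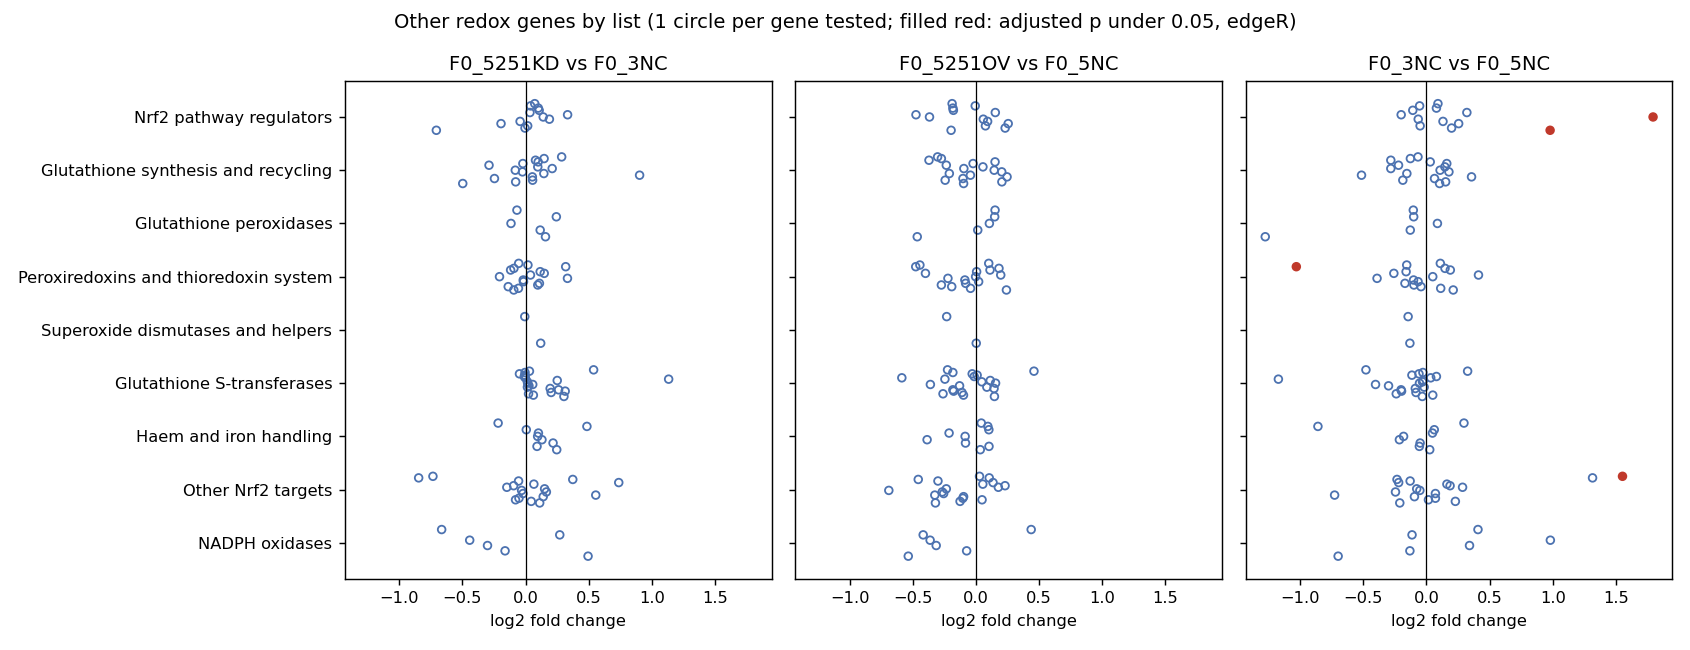
Log2 fold change (horizontal axis) of the 108 tested pathway genes, 1 circle each, by list (vertical axis) in 3 comparisons, with filled red circles for an adjusted p under 0.05 by edgeR. The treatment comparisons have no filled circle, and F0_3NC vs F0_5NC has 3 on the higher side (Maff, Ugdh and Bach1) and 1 on the lower (Txnip).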

How the data were processed

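Polyadenylated RNA of 12 testis samples was sequenced, and the authors aligned reads with SOAPaligner 2.20 to mm10, per the submitters' processing notes and the methods. The kit is not stated to mark strand, so reads of opposite strands may be in 1 count. The authors deposited estimated counts per gene (12.0% not whole, tolerance 1e-06, and none of the 120 values of the members) and RPKM values, a unit the methods name. The gene length implied by count, RPKM and library total had a median range of 2.05% over the libraries in 5188 well-covered genes. The sources used here do not name the counting tool. A further 18 per-sample columns matched no sample of the series and were not used, and neither were the authors' group averages.

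Estimated counts were rounded. The main test was the two-sided quasi-likelihood test of edgeR 4.0.16 (R 4.3.3), after filterByExpr and TMM scaling (factors of 0.97 to 1.08). All 12 libraries entered 1 model with 4 groups, which left 8 residual degrees of freedom. Adjustment over the 16296 genes followed Benjamini and Hochberg, with a threshold of 0.05. CPM uses the same factors. Intervals are at 95%. Each value was recomputed with upper-quartile factors, with DESeq2 1.42.0, unfiltered, with a minimum of 1 CPM in 3 samples, with limma 3.58.1 on RPKM (pseudocounts of 1 and 0.1 before log2), from the 2 groups alone, with a block for the replicate number, and without each library. The tests were tested on simulated data.

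The members and lists were chosen with earlier results of these data known. Named besides the members were 13 regulators and pathway genes, per comparison the pathway gene with the smallest p in each direction and any past the threshold, and for members without overlap in a treatment comparison the 3 most alike genes. Promoters are from RefSeq (GRCm38.p6).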

Additional observations from a re-analysis of the deposited data

How the results depend on the processing

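Every member kept its side of the threshold in all comparisons under every alternative, and Hmox1 stayed past it in F0_3NC vs F0_5NC. With 3 libraries per group, the standard errors of the members in F0_5251KD vs F0_3NC ran from 0.0662 (Sod2) to 0.298 (Nqo1). Alternatives for pathway genes were added after seeing the data. DESeq2 called 20, 29, 131 and 34 genes in F0_5251KD vs F0_3NC, F0_5251OV vs F0_5NC, F0_3NC vs F0_5NC and the difference of effects, against 4, 0, 54 and 0 in edgeR. In F0_3NC vs F0_5NC the DESeq2 calls were 83 higher and 48 lower, those of edgeR 45 and 9. Limma called 2 (log2(RPKM + 1)) and 0 (log2(RPKM + 0.1)) in the first, and 1 (log2(RPKM + 1)) for the difference of effects. F0_5251OV vs F0_5NC had 3 calls without the filter and 3 with only the 2 groups fitted. With the replicate number as a block the first had 2 calls, and no member changed its call. Samples of one number had r of -0.221 to 0.146 in their deviations, over 0.1 in 2 of 18 pairs. Samples of different numbers had -0.255 to 0.381, over 0.1 in 5 of 36 pairs. The numbers thus gave no sign of pairing, which this check on 3 libraries per group cannot exclude. Without each library in turn the calls numbered 0 to 4, 0 to 1, 30 to 54 and 0 to 1. In F0_3NC vs F0_5NC the Bach1 call was also lost with limma (adjusted p of 0.0978 and 0.149) and the 2-group fit (0.105), and the Ugdh call with limma on log2(RPKM + 0.1) (0.051); the cause was not tested.

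No value that changed sign had passed the test. In F0_5251OV vs F0_5NC, limma gave -0.01 and -0.01 for Sod1, -0.03 and -0.03 for Prdx6 and -0.03 and -0.03 for Gpx4, which had -0.01 with upper-quartile scaling, and in F0_5251KD vs F0_3NC Sod3 had 0.01 with the 1 CPM filter and 0.02 and 0.02 with limma. Signs of log2 fold changes also turned without single libraries. In F0_5251KD vs F0_3NC the ranges were -0.13 to 0.51 (Nqo1), -0.08 to 0.01 (Gclm), -0.01 to 0.06 (Sod1), -0.06 to 0.27 (Cat), -0.13 to 0.09 (Sod3), -0.04 to 0.01 (Prdx6), -0.07 to 0.21 (Gsr), -0.55 to 0.01 (Gss), -0.05 to 0.22 (Gpx4), -0.02 to 0.07 (Srxn1). In F0_5251OV vs F0_5NC the ranges were -0.18 to 0.01 (Hmox1), -0.01 to 0.19 (Gclm), -0.04 to 0.02 (Txnrd1), -0.09 to 0.15 (Gpx1), -0.02 to 0.07 (Sod1), -0.04 to 0.08 (Prdx6), -0.01 to 0.16 (Keap1), -0.04 to 0.14 (Gsr), -0.05 to 0.12 (Gpx4). In F0_3NC vs F0_5NC the ranges were -0.08 to 0.27 (Nqo1), -0.14 to 0.04 (Slc7a11), -0.13 to 0.04 (Keap1), -0.23 to 0.04 (Gpx4), -0.03 to 0.20 (Nfe2l2). For the difference of effects the ranges were -0.14 to 0.50 (Nqo1), -0.02 to 0.07 (Sod2). Values that rounded to 0 also ran to both sides of it. These were Gpx1 in F0_5251KD vs F0_3NC (-0.15 to 0.09) and Nqo1 in F0_5251OV vs F0_5NC (-0.19 to 0.13). For the difference of effects they were Gpx1 (-0.15 to 0.09) and Sod1 (-0.05 to 0.05). The cause was not tested.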
